A study of Mus musculus with 18 samples.

Results

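Apoe, Trem2, Tyrobp, Fcer1g, Clu, Lpl, Abca1, Abca7, Cd9 and Itm2b are genes of lipid transport, of immune receptor complexes and, with Cd9 and Itm2b, of membrane proteins. They were taken by gene symbol and make up 10 of the 30905 genes counted in each library. Their levels were compared in single nuclei of the hippocampus (Hip) and the prefrontal cortex (PFC) of 9 Kun Ming mice, for which the labels name no engineered allele. Of these mice, 3 were germ-free (GF), 3 were specific pathogen-free (SPF), and 3 were colonized germ-free (CGF), which are GF mice moved in with SPF mice at 4 weeks of age and kept with them for 4 weeks. All mice were harvested at 8 weeks, and each gave 1 library per region, 18 libraries in all. GF and CGF mice lived in flexible film isolators and SPF mice were raised under other conditions, so housing and microbiota cannot be told apart between GF and SPF mice. CGF mice shared cages with SPF mice, and the cage of each sequenced mouse is not given in the sources used here. The comparison of GF with SPF mice asks what the absence of gut microbes changes in the brain, and that of CGF mice with both asks whether later colonization brings the levels back.

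Apolipoprotein E (Apoe) is the main lipid carrier of the brain. Astrocytes make most of it, the transporter Abca1 loads it with cholesterol and phospholipid, and clusterin (Clu) is a second abundant carrier. Trem2 is a receptor of microglia, the resident immune cells of the brain, that binds lipids and lipoproteins and signals through the adaptor Tyrobp. Fcer1g is a related adaptor used by Fc receptors. Lpl hydrolyses lipoprotein triglycerides, Abca7 is a relative of Abca1, Cd9 is a membrane organizer of the tetraspanin family, and Itm2b (BRI2) is a membrane protein that binds the amyloid precursor protein.

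RNA was counted as UMIs (unique molecular identifiers, 1 per captured molecule). A level, in CPM, is the number of UMIs of a gene per 1000000 UMIs of all nuclei of 1 cell type in 1 library. The counts come from the 3′ ends of transcripts, so a level is compared between samples and cell types and not between genes. Nuclei were clustered within each region and clusters were named from marker genes, which gave microglia-like, astrocyte-like, excitatory neuron-like, interneuron-like, oligodendrocyte-like and oligodendrocyte precursor cell-like (OPC) clusters, named without the suffix from here on. Microglia numbered 2159 nuclei in Hip and 2390 in PFC, astrocytes 6683 and 5510, and excitatory neurons 39640 and 37788, and all 12 microglial markers were detected in the microglia of every library. Library totals were 49067853 to 63217083 UMIs in Hip, where median UMIs per nucleus were lower in GF libraries (4593 to 5809.5) than in SPF ones (6132 to 7054) and ran from 5444.5 to 7559.5 in the CGF group. Mitochondrial genes took 0.645% to 1.096% of UMIs in Hip of GF mice, 0.128% to 0.471% for SPF and 0.0770% to 0.218% for CGF, whereas in PFC the GF share was the lowest (0.359% to 0.594%, against 1.66% to 3.22% and 1.28% to 2.24%). The part of these differences in the results was not tested. In PFC, GF libraries held 59126586 to 71463928 UMIs, SPF libraries 20336250 to 26949210 and CGF libraries 22213863 to 26151503, and their median UMIs per microglial nucleus were 1490.5 to 1682, 674 to 713 and 702 to 775. PFC nuclei of GF mice also fell into other clusters than those of SPF and CGF mice. Cluster 19 held 92.42% of GF microglia, whereas cluster 14 held 98.56% of SPF and 96.25% of CGF microglia. Astrocytes were split likewise, with 98.84% of GF nuclei in cluster 11 and 99.76% of SPF and 99.69% of CGF nuclei in cluster 7. In PFC, group and depth therefore cannot be told apart, and each PFC value below carries this limit. Any pair of libraries shared 6 to 29 barcodes, at most 0.362% of the smaller library.

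The genes lie on 8 chromosomes of mm10 (GRCm38). Apoe is at chr7:19696109-19699188 on the minus strand, Trem2 at chr17:48346401-48354147 on the plus strand, Tyrobp at chr7:30413760-30417585 (plus), Fcer1g at chr1:171229572-171234365 (minus) and Clu at chr14:65968483-65981547 (plus). Lpl is at chr8:68880491-68907448 (plus), Abca1 at chr4:53030787-53159895 (minus), Abca7 at chr10:79996494-80015572 (plus), Cd9 at chr6:125460266-125494791 (minus) and Itm2b at chr14:73362226-73385289 (minus). Of the 10 genes, only Cd9 overlaps other annotated genes, the antisense gene Gm28809 and the processed transcript Gm26728, both on the other strand. Promoter sequences from RefSeq (GRCm38.p6, 250 bases before the start site to 50 after it) were matched for 7 of the 10 genes, and 3 are shown because they belong to the 2 genes the comparisons turn on and to the lipid exporter that loads Apoe. Capitals mark matches on either strand to the core of the PU.1 site (GAGGAA), the motif of a myeloid factor, or to the repeat of the liver X receptor, a sterol sensor (NGGTNANNNNNGGTNA). These motifs do not overlap in the stretches shown.
Apoe, first of 3 listed start sites, chr7:19699139-19699438, minus strand: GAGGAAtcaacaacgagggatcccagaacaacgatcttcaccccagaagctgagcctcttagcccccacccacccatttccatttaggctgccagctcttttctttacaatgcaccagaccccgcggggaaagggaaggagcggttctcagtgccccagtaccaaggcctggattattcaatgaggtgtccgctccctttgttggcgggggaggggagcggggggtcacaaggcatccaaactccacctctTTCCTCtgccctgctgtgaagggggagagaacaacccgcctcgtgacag
Trem2, chr17:48346151-48346450, plus strand: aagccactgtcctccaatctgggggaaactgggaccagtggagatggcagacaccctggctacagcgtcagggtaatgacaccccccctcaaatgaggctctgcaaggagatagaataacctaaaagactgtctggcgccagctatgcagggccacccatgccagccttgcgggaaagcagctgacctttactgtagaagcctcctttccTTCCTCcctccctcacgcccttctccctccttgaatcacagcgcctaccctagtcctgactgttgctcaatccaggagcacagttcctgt
Abca1, chr4:53159846-53160145, minus strand: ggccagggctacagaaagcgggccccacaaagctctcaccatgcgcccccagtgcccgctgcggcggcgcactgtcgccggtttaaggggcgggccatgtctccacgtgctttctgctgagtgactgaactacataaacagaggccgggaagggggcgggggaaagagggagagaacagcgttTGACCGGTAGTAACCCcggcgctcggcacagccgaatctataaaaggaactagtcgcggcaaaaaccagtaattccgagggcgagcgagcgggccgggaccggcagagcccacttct
The PU.1 core matched 2 times in the Apoe promoter, at the first bases shown and next to the start site. Counted from 0 at the start site, it matched at -40 in that of Trem2. The liver X receptor repeat matched at -67 in the Abca1 promoter. Of 32851 promoters of this length, 28.3% hold the PU.1 core and 0.718% the repeat. A match is a stretch of letters and not a measured binding site.

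Across cell types, levels of the receptor complex were highest in microglia and those of the lipid carriers in astrocytes. Trem2 ranged from 35.9 to 207 CPM in the Hip microglia of the 9 mice and from 71.1 to 247 CPM in PFC microglia, while no other type of the same region exceeded 9.32 CPM in Hip or 10.7 CPM in PFC. Tyrobp and Fcer1g were likewise highest in microglia of both regions, and the lowest microglial library lay above the highest library of every other type. Apoe was highest in astrocytes, at 1172 to 6773 CPM in Hip and 637 to 4765 CPM in PFC. Over all mice these ranges overlapped with those of several types, up to 6143 CPM in ependymal nuclei, 2799 in fibroblasts, 2276 in endothelial cells and 1697 in microglia of Hip, and up to 2191 CPM in endothelial cells, 1536 in fibroblasts, 1203 in OPC, 1160 in microglia, 1075 in mural cells and 644 in oligodendrocytes of PFC. Within each group, astrocytes and microglia did not overlap in Apoe. Clu followed Apoe, with 238 to 1026 CPM in Hip astrocytes and 124 to 705 CPM in PFC astrocytes, and also overlapped with other types, most with ependymal nuclei in Hip (196 to 932 CPM) and fibroblasts in PFC (37.1 to 209 CPM).

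The other genes were spread over more types. Abca1 was highest in microglia, where its 245 to 401 CPM in Hip lay above all other types and its 195 to 397 CPM in PFC overlapped those of OPC (101 to 306 CPM). Itm2b led in endothelial cells of Hip (482 to 1045 CPM) and overlapped there with microglia (391.7 to 916 CPM). Cd9 was highest by median in ependymal nuclei of Hip (139 to 518 CPM) and in OPC of PFC (69.9 to 292 CPM), and overlapped with oligodendrocytes and microglia in both regions. Lpl was highest in Hip microglia (16.3 to 66.8 CPM), which overlapped with Hip excitatory neurons (9.8 to 38.6 CPM). Abca7 stayed at 5.9 to 26.2 CPM in Hip microglia. Its neighbours in the order of types overlapped in both regions, except Hip oligodendrocytes (9.03 to 12.1 CPM) and astrocytes (2.58 to 8.42 CPM).

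**Figure D1:**
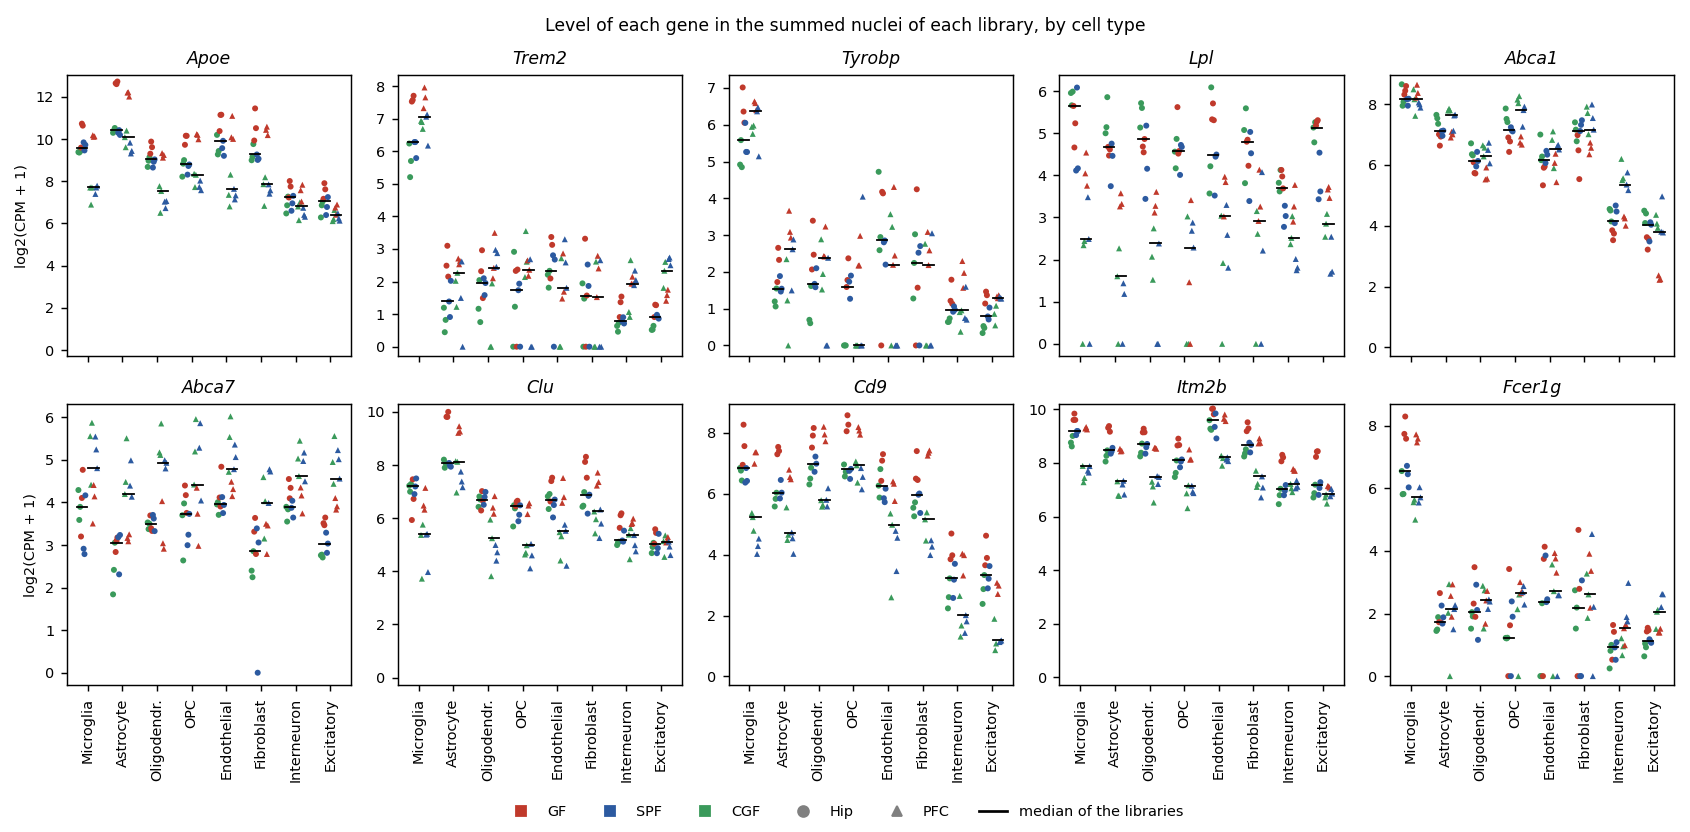
Level of each gene, as log2(CPM + 1), in the summed nuclei of each library (points, coloured by group, circles for Hip and triangles for PFC) for 8 cell types, with the median of the libraries as a line. Trem2, Tyrobp and Fcer1g stand apart in microglia, and the GF libraries lie highest for Apoe and Clu in astrocytes.

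RNA free in the droplets can add UMIs to nuclei that do not express a gene, and empty droplets were not analysed here. Excitatory neurons, the most numerous type, held 31.9% of the Apoe UMIs of Hip (astrocytes 31.2%) and 47.3% of the Trem2 UMIs of PFC (microglia 32.5%), and how much of these was free RNA was not tested. Their shares of nuclei with a UMI are set beside those of microglia. In Hip, 56.1% to 76.8% of excitatory neurons of GF and SPF mice held an Apoe UMI, at median depths of 5985.5 to 9579.5 UMIs against 1523 to 2230 in microglia, and 0.65% to 1.08% held a Trem2 UMI. Shares after thinning are those expected when each nucleus with at least 500 UMIs is cut to 500. Nuclei with fewer UMIs were left out of them. After this thinning, 4.9% to 13% of Hip excitatory neurons of these groups held Apoe, against 31.6% to 48.4% of GF and 24.7% to 32.7% of SPF microglia. Before thinning, 71.1% to 86.0% of GF and 60.6% to 78.8% of SPF microglia held Apoe, which overlapped with the neurons. The part of free RNA in the Apoe of Hip microglia was not tested. In PFC of SPF mice, 12.1% to 18.3% of microglia held Apoe before thinning, fewer than the 25.6% to 29.7% of excitatory neurons, at median depths of 674 to 713 and 3906 to 4147 UMIs. After it the order was the opposite, at 7.14% to 11.9% against 3.69% to 4.63%. The part of free RNA in the Apoe of these microglia was not tested either, and the Apoe folds below carry this limit.

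Trem2 and both adaptors rose in GF microglia of Hip. Trem2 stood at 183, 189 and 207 CPM in GF mice 5, 6 and 7, at 76.7, 76.7 and 54.2 CPM in SPF mice 30, 31 and 32, and at 74.3, 35.9 and 50.9 CPM in CGF mice 17, 18 and 19. The 3 GF mice lay above the other 6, and Trem2 was 2.86-fold higher in GF than in SPF mice (95% interval of the log2 fold change 1.07 to 1.96, adjusted p = 8.58e-06). Here and below the test is edgeR's quasi-likelihood test on UMIs summed per mouse, adjusted over all genes tested. Fcer1g was at 213, 313 and 191 CPM in GF, 104, 86.5 and 64.4 CPM in SPF and 92.9, 55.2 and 55.5 CPM in CGF mice. The groups did not overlap between GF and SPF mice, and the level was 2.87-fold higher in GF mice (interval 1.05 to 1.99, adjusted p = 1.81e-05). Tyrobp was at 128, 81.0 and 65.5 CPM in GF, 65.3, 37.4 and 37.3 CPM in SPF and 29.2, 46.9 and 27.8 CPM in CGF mice. GF and SPF mice barely parted, at 1.98-fold (interval 0.41 to 1.56, adjusted p = 0.00962). The Tyrobp call was lost without GF mouse 5 (log2 fold change 0.65, adjusted p = 0.144), without SPF mouse 31 (0.80, adjusted p = 0.0578) and once a trend with gene length and GC content was taken out of every library (0.25, adjusted p = 0.619).

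Apoe also rose in GF microglia of Hip, with less certainty. It was at 772, 1697 and 1590.4 CPM in GF, 917, 704 and 844 CPM in SPF and 666, 656 and 680.4 CPM in CGF mice. GF mice 6 and 7 were high, whereas GF mouse 5 lay between the SPF mice. The level was 1.69-fold higher in GF than in SPF mice (interval 0.34 to 1.18, adjusted p = 0.00638), a call that was lost without GF mouse 6 (log2 fold change 0.56, adjusted p = 0.071) or GF mouse 7 (0.59, adjusted p = 0.0721). With the length and GC trend removed, no difference was left (-0.0045, adjusted p = 0.991). All 8 astrocyte markers were detected in Hip microglia, with a summed level of 2350 to 2507 CPM in GF, 3299 to 4270 CPM in SPF and 3599 to 4979 CPM in CGF mice. In Hip astrocytes themselves, Apoe per 1000 UMIs of these markers was 482 to 596 in GF and 101 to 107 in SPF mice, and the part of astrocyte RNA in microglial Apoe was not tested. Clu, the second carrier, was at 60.0, 176 and 105 CPM in GF and 119, 145 and 179.7 CPM in SPF mice, which overlapped (log2 fold change -0.34, interval -0.86 to 0.18, adjusted p = 0.349). Clu was lower in GF mice without GF mouse 6 (-0.81, adjusted p = 0.0297) and with that trend removed (-0.68, adjusted p = 0.046).

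The membrane proteins rose as well. Cd9 was at 123, 308 and 189 CPM in GF, 81.6, 114 and 84.8 CPM in SPF and 114, 108 and 85.6 CPM in CGF mice. All GF mice were above all SPF mice, by 2.29-fold (interval 0.68 to 1.70, adjusted p = 0.000695). Itm2b was at 778, 916 and 778 CPM in GF, 525, 584 and 581 CPM in SPF and 433, 391.7 and 514 CPM in CGF mice, without overlap. The difference of GF from SPF mice was 1.502-fold (interval 0.28 to 0.90, adjusted p = 0.00466). Of Abca1 and Lpl, neither passed the test in Hip microglia. Abca1 was at 317, 346 and 385 CPM in GF and 286, 246 and 288 CPM in SPF mice, higher in each GF mouse, with a log2 fold change of 0.39 (interval 0.03 to 0.75, adjusted p = 0.0991). It passed with another clustering (0.46, adjusted p = 0.0486), with the length and GC trend removed (0.63, adjusted p = 0.00838) and with nuclei holding macrophage markers removed (0.48, adjusted p = 0.0409). Lpl overlapped, at 49.1, 24.3 and 36.7 CPM in GF and 16.3, 66.8 and 17 CPM in SPF mice. SPF mouse 31 set this result, and without it Lpl was higher in GF mice (log2 fold change 1.11, adjusted p = 0.0453). Abca7 had 3 to 10 UMIs per library in Hip microglia of GF and SPF mice and was too low to test.

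In all, 6 of the 9 genes tested rose in Hip microglia of GF against SPF mice and 0 fell, where 15.7% of all genes tested rose, 11.8% fell and 27.5% changed in either direction. The GF mice lay above the SPF mice without overlap for 6 of the 9, Abca1 among them and Apoe not, and for 20.6% of all genes. Against CGF mice the same 6 genes rose, with 27.9% of all genes changed. Trem2 was 3.60-fold higher in GF than in CGF mice (adjusted p = 2.18e-06), Fcer1g 3.55-fold (5.31e-06), Tyrobp 2.66-fold (0.00151), Apoe 2.04-fold (0.000525), Cd9 2.04-fold (0.00395) and Itm2b 1.86-fold (0.000107). Cd9 lost this call without GF mouse 6 (log2 fold change 0.62, adjusted p = 0.0843), and Apoe and Tyrobp lost it after removal of the length and GC trend (0.08 and 0.55, adjusted p = 0.838 and 0.3). Both comparisons share the GF mice. Apoe, Trem2, Fcer1g, Itm2b and Cd9 are among the microglial genes that the study selected on these samples as reversed by colonization, so their direction here is not independent evidence.

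Between CGF and SPF mice, 0 of the 9 genes passed edgeR in Hip microglia, 1 (Lpl) had an unadjusted p under 0.05, and DESeq2 called 0 and gave 0 under 0.05. Of all genes tested, 0.151% were called. The interval of the log2 difference was -0.86 to 0.20 for Trem2, -0.70 to 0.16 for Apoe, -0.86 to 0.25 for Fcer1g and -0.39 to 0.72 for Cd9, so that differences of CGF from SPF mice within these bounds remain possible. Lpl was at 61.0, 49.6 and 62.5 CPM in CGF mice (log2 difference 0.88, interval 0.08 to 1.67, adjusted p = 0.658), and without SPF mouse 31 it was called higher (1.79, adjusted p = 0.0493).

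**Figure D2:**
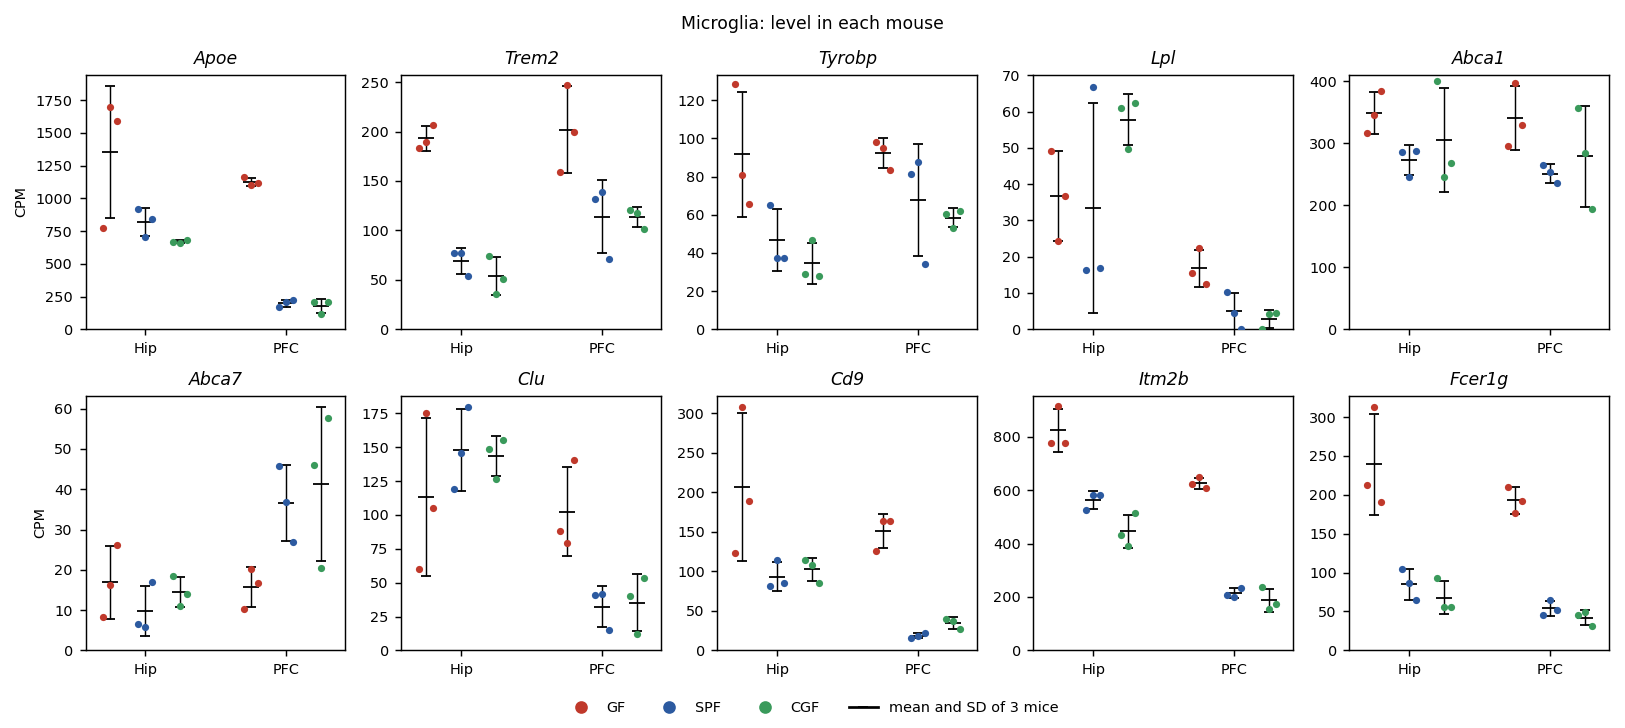
Level in microglia (CPM, linear axis from 0) for each mouse, by region and group, with mean and SD of 3 mice. The 3 GF mice stand above the SPF and CGF mice for Trem2, Fcer1g and Itm2b in both regions, and Apoe of Hip shows GF mouse 5 at 772 CPM among the SPF mice.

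In PFC microglia, Cd9 and Apoe showed the largest steps of the 9 genes tested. Apoe was at 1159.6, 1101 and 1120.2 CPM in GF, 168, 208 and 221 CPM in SPF and 207, 118 and 208 CPM in CGF mice. GF mice stood apart from the other 6 by 5.06-fold against SPF mice (interval 1.93 to 2.75, adjusted p = 1.09e-09). Cd9 was at 126, 164 and 164 CPM in GF but 15.3, 18.5 and 22.1 CPM in SPF mice, from 3 to 9 UMIs per SPF library. It was 6.94-fold higher in GF mice (interval 2.17 to 3.42, adjusted p = 3.77e-08). Cd9 passed the filter on low counts only with the GF mice, where it is high, so this call is no independent evidence of a rise. Clu was at 88.0, 79.0 and 140.2 CPM in GF and 40.7, 41.5 and 14.7 CPM in SPF mice, from 6 to 9 UMIs per SPF library. It was 3.27-fold higher in GF mice (interval 0.94 to 2.48, adjusted p = 0.000472). Itm2b was at 623, 648 and 608 CPM in GF, 209, 198 and 235 CPM in SPF and 236, 155 and 173 CPM in CGF mice, 2.62-fold higher in GF than in SPF mice (interval 1.01 to 1.77, adjusted p = 9.53e-07). None of these 4 genes overlapped between GF and SPF mice.

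The receptor complex gave a mixed picture in PFC microglia. Fcer1g was at 211, 176 and 192 CPM in GF, 45.8, 64.6 and 51.5 CPM in SPF and 46.1, 48.8 and 31 CPM in CGF mice, 3.24-fold higher in GF than in SPF mice (interval 1.22 to 2.17, adjusted p = 1.46e-06). Trem2 was at 159, 247 and 199.9 CPM in GF, 132, 138 and 71.1 CPM in SPF and 121, 118 and 102 CPM in CGF mice. GF mice were higher by 1.70-fold (interval 0.29 to 1.24, adjusted p = 0.00804), but the call did not hold under 5 other settings. It was lost without SPF mouse 32 (log2 fold change 0.46, adjusted p = 0.153), with likely doublets removed (0.35, adjusted p = 0.262), with the length and GC trend removed (0.28, adjusted p = 0.342), with another clustering (0.24, adjusted p = 0.44) and with nuclei gated one by one by their markers (0.16, adjusted p = 0.689). Tyrobp was at 98.4, 95.2 and 83.3 CPM in GF and 81.4, 87.7 and 34.3 CPM in SPF mice, which overlapped (log2 fold change 0.43, interval -0.14 to 0.99, adjusted p = 0.2). Among the transporters, Abca1 did not pass (0.30, interval -0.11 to 0.72, adjusted p = 0.217). Abca7 was lower in GF mice, at 10.4, 20.2 and 16.7 CPM against 45.8, 36.9 and 27.0 CPM in SPF mice (2.42-fold, adjusted p = 0.0171), a call lost without GF mouse 5 (log2 fold change -1.02, adjusted p = 0.0745), without SPF mouse 30 (-1.13, adjusted p = 0.0687) and with the length and GC trend removed (-0.99, adjusted p = 0.0589). These Abca7 levels rest on few UMIs, 6, 10 and 12 in GF and 9, 8 and 11 in SPF mice, and these counts overlap. With the marker gate, Clu and Abca7 no longer passed the filter on low counts and could not be tested, and Abca7 could not be tested either with doublets removed or with the other clustering. Lpl had 0 to 11 UMIs per PFC library and was not tested.

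In PFC microglia, 7 of 9 genes tested were called between GF and SPF mice, 6 higher and 1 lower, where 49.9% of all genes were called, 24.7% higher and 25.2% lower. Cd9, which this count includes, passed the filter on low counts only with the GF mice. GF mice lay above SPF mice without overlap for 7 of the 9, and for 34.9% of all genes. Between GF and CGF mice, which share the GF mice with that comparison, the same 7 genes were called among 49.7% of all genes, with Apoe 5.69-fold (adjusted p = 4.52e-10), Fcer1g 4.06-fold (1.86e-07), Cd9 3.85-fold (1.34e-06), Itm2b 2.96-fold (1.78e-07), Clu 2.65-fold (0.0018) and Trem2 1.58-fold (0.0175) higher in GF mice. Abca7 was 2.89-fold lower in GF than in CGF mice (adjusted p = 0.00347). The Trem2 call against CGF mice was lost without GF mouse 6 (log2 fold change 0.52, adjusted p = 0.0813) and without CGF mouse 19 (0.57, adjusted p = 0.0795). It was also lost with the marker gate, where no difference was left (-0.0613, adjusted p = 0.883), with the other clustering (0.0046, adjusted p = 0.99), with the length and GC trend removed (0.18, adjusted p = 0.557), with doublets removed (0.29, adjusted p = 0.356), with thinned libraries (0.53, adjusted p = 0.0779) and by DESeq2 (0.67, adjusted p = 0.0582). Between CGF and SPF mice, edgeR called 0 of the 9 genes, with 0 at an unadjusted p under 0.05, and DESeq2 called 0 with 0 under 0.05, where 0.0764% of all genes were called. For Cd9, at 40.3, 36.6 and 26.6 CPM in CGF mice and thus above each SPF mouse, the interval of the log2 difference was -0.01 to 1.71.

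The microglial nuclei of the groups also differed in their marker levels. In PFC, the summed level of the 12 microglial markers was 7370 to 8838 CPM in GF, 3046 to 3739 CPM in SPF and 2741 to 3981 CPM in CGF mice, while the excitatory neuron markers (6 or 7 of 7 detected in each library) stood at 818 to 959, 2336 to 2558 and 2163 to 2692 CPM. In Hip the microglial markers were at 7866 to 8299 CPM in GF and 5111 to 7060 CPM in SPF mice, and the neuronal markers, with 7 of 7 detected, at 557 to 702 and 973 to 1309 CPM. Macrophage markers, 6 or 7 of 7 detected in Hip, ranged from 147 to 465 CPM in GF, 233 to 375 CPM in SPF and 348 to 855 CPM in CGF mice. In PFC, 7 of 7 were detected in GF mice (290.1 to 480 CPM), 3 to 7 in SPF (117 to 233 CPM) and 4 or 5 in CGF mice (83.5 to 317 CPM). Whether these differences bear on the calls was not tested, but each gene was also set against the microglial markers of the same nuclei.

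Per 1000 UMIs of the microglial markers, Trem2 of Hip kept its order, with 22.0 to 26.3 UMIs for GF mice against 10.6 to 11.3 for SPF mice, and 5.10 to 9.84 for the CGF group. The PFC ratio did not keep it. At 20.4 to 27.9 UMIs, GF mice overlapped with SPF mice (23.3 to 38.0) and all lay below the CGF group (30.4 to 37.2). Fcer1g was above SPF and CGF mice in both regions on this scale, at 24.3 to 38.8 UMIs in GF against 12.3 to 15.4 in SPF mice of Hip and at 19.9 to 27.0 against 13.1 to 17.3 in PFC. Apoe separated GF from SPF mice in PFC, at 125 to 152 against 48.2 to 72.4 UMIs, and overlapped in Hip, at 93.1 to 210.2 against 99.7 to 165 UMIs. Itm2b overlapped in both regions, at 93.7 to 113 against 77.4 to 114 UMIs in Hip and 73.3 to 82.5 against 53.1 to 77.2 UMIs in PFC. Cd9 overlapped in Hip and parted in PFC, at 16.2 to 22.2 UMIs in GF against 4.38 to 7.24 in SPF mice. Clu overlapped in both regions, at 7.23 to 21.8 against 17.6 to 35.2 UMIs in Hip and 8.93 to 19.02 against 4.83 to 11.7 UMIs in PFC, although its PFC level was called. For Abca1 the ratio was 37.8 to 44.9 UMIs in GF mice of PFC, below the 67.9 to 77.2 of SPF mice and the 71.1 to 89.7 of the CGF group, and it overlapped in Hip. Abca7 of PFC was likewise lower in GF mice, at 1.33 to 2.29 against 8.85 to 13.1 UMIs. Tyrobp and Lpl overlapped between GF and SPF mice in both regions. Tyrobp of PFC was lower in GF mice (10.8 to 12.6 UMIs) than in the CGF group (15.2 to 22.6 UMIs). The ratio was chosen after the values were seen and carries no test. Its 12 markers include Ctss, C1qa, C1qb, C1qc and Cx3cr1, which the study lists among the genes reversed by colonization. The divisor may thus itself change with the group, and the ratio is no neutral correction.

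**Figure D3:**
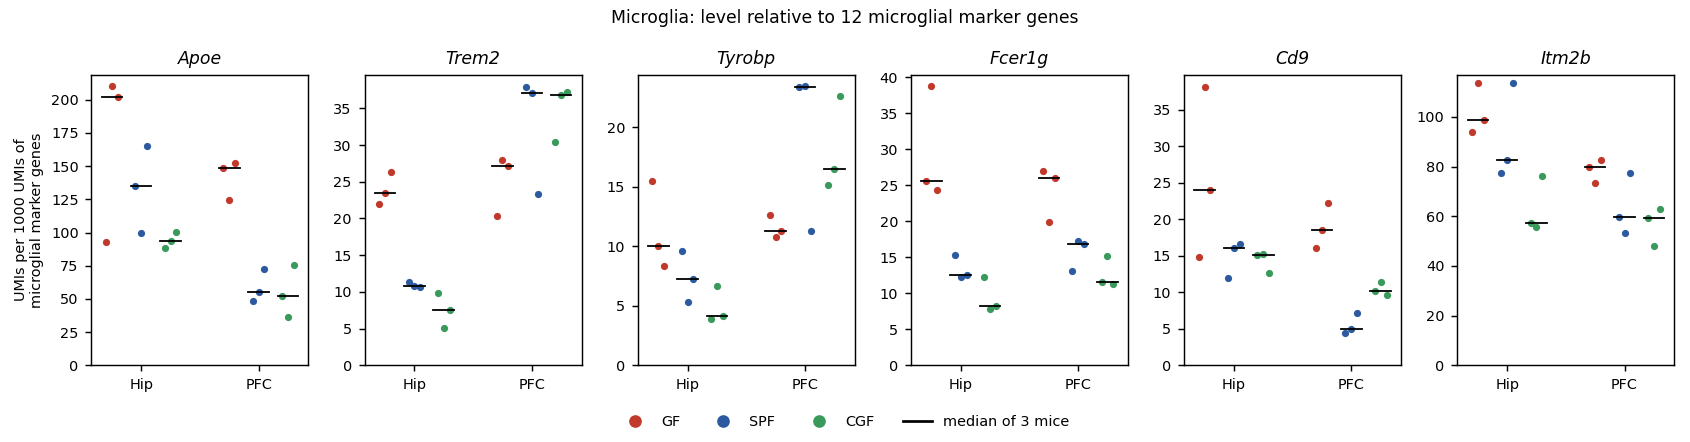
UMIs of 6 genes per 1000 UMIs of 12 microglial marker genes in microglia of each mouse (points), by region and group, with the median of 3 mice as a line, on a linear axis from 0. Trem2 of Hip and Fcer1g of both regions keep GF mice on top, whereas Trem2 and Tyrobp of PFC do not.

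The share of nuclei with a UMI parted GF from SPF mice in Hip microglia for Trem2, Tyrobp, Fcer1g and Cd9. For Itm2b (70.3% to 77.4% against 58.4% to 74%) and Abca1 (38.6% to 41.4% against 29.7% to 46.4%), whose levels did part, the shares overlapped before thinning. Of Hip microglia, 24.3% to 28.8% of GF microglia held a Trem2 UMI, against 11.6% to 12.2% of SPF and 5.69% to 11.7% of CGF microglia, and 8.66% to 9.57%, 2.84% to 3.69% and 1.84% to 3.45% did after thinning to 500 UMIs. Before thinning, the PFC shares were 21.5% to 31.3% for GF mice, 8.56% to 14.3% for SPF mice and 12.8% to 14.1% for the CGF group. After it, the ranges met, at 7.83% to 11.3%, 5.52% to 9.44% and 8.28% to 8.82% of the microglia with at least 500 UMIs. PFC microglia of SPF and CGF mice were shallower, so the part left out may differ between groups. Fcer1g kept GF mice apart after thinning, with 8.84% to 13.9% against 3.23% to 4.67% of SPF microglia in Hip and 8.61% to 9.81% against 3.13% to 3.84% in PFC.

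Astrocytes of GF mice held several times more Apoe and Clu RNA. In Hip, Apoe was at 6398, 6219 and 6773 CPM in GF, 1257, 1371 and 1172 CPM in SPF and 1256, 1361 and 1471 CPM in CGF mice. The spread within each group was far smaller than the step between GF mice and the rest, 5.17-fold against SPF mice (interval of the log2 fold change 2.10 to 2.64, adjusted p = 4.36e-08). It ranked 18 from the highest of 12734 genes tested. Clu was at 902, 899 and 1026 CPM in GF, 269, 250.4 and 245 CPM in SPF and 294, 238 and 268 CPM in CGF mice. Its step was 3.76-fold (interval 1.64 to 2.18, adjusted p = 5.62e-07), rank 68. Cd9 was at 157, 185 and 169 CPM in GF and 56.6, 86.7 and 64.7 CPM in SPF mice, 2.48-fold higher (interval 0.96 to 1.66, adjusted p = 6.01e-05), and Itm2b was at 635, 664 and 574 against 325, 345 and 377 CPM, 1.81-fold higher (0.60 to 1.11, adjusted p = 0.000137). Hip astrocytes of the 3 groups came from the same clusters in like shares, and their summed level of 8 astrocyte markers overlapped, at 10430.1 to 13273 CPM in GF, 10909 to 13156 CPM in SPF and 12591 to 14357 CPM in CGF mice.

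Abca1, the exporter, did not rise with Apoe. Abca1 was at 127, 98.2 and 121 CPM in GF, 137, 123 and 139 CPM in SPF and 199, 184 and 162 CPM in CGF mice of Hip, with a log2 difference between GF and SPF mice of -0.18 (interval -0.46 to 0.10, adjusted p = 0.312). Lpl did not pass between GF and SPF mice (0.22, interval -0.39 to 0.83, adjusted p = 0.584), nor did Abca7 (0.13, interval -0.74 to 0.99, adjusted p = 0.836). In all, 4 of the 7 genes tested were called in Hip astrocytes, all higher in GF mice, where 33.6% of all genes changed, 18% higher and 15.6% lower. The same 4 had GF mice above SPF mice without overlap, as did 23% of all genes. Against CGF mice, 6 of 7 were called among 35% of all genes, with Apoe 4.65-fold, Clu 3.47-fold, Cd9 2.98-fold and Itm2b 1.98-fold higher in GF mice. Abca1 was 1.60-fold lower (adjusted p = 0.00105) and Lpl 1.80-fold lower (adjusted p = 0.0202) in GF than in CGF mice. Removal of the length and GC trend ended the Abca1 call (log2 fold change -0.38, adjusted p = 0.0522). The Lpl call was lost without GF mouse 6 (-0.79, adjusted p = 0.0656), GF mouse 7 (-0.89, adjusted p = 0.0561) or CGF mouse 19 (-0.53, adjusted p = 0.116).

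Between CGF and SPF mice, edgeR called 0 of 7 genes in Hip astrocytes and DESeq2 called 0, where 0.0471% of all genes were called. Abca1 and Lpl had an unadjusted p under 0.05 in both tools, 2 genes of 7. Abca1 of CGF mice was above each SPF mouse (log2 difference 0.50, interval 0.23 to 0.77, adjusted p = 0.213), and Lpl was at 31, 34.3 and 56.9 CPM against 12.4, 26 and 21 CPM (1.07, interval 0.54 to 1.59, adjusted p = 0.175). With no filter on low counts both were called (0.52 and 1.08, adjusted p = 0.0289 and 1.77e-05). For Apoe the interval was -0.10 to 0.41.

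PFC astrocytes also held more Apoe, Clu, Cd9 and Itm2b RNA in GF mice, with the SPF and CGF libraries of that region shallower than the GF ones. Apoe was at 4711, 4765 and 4132 CPM in GF, 909, 637 and 692 CPM in SPF and 1089, 782 and 1349.8 CPM in CGF mice. GF mice were far above the rest, 6.27-fold against SPF mice (interval 2.28 to 3.02, adjusted p = 1.61e-11). Clu was at 593, 705 and 614 CPM in GF, 215, 166 and 143 CPM in SPF and 283, 124 and 278 CPM in CGF mice, 3.80-fold higher in GF than in SPF mice (1.51 to 2.34, adjusted p = 2.5e-08). Cd9 was 4.84-fold higher (1.76 to 2.79, adjusted p = 6.27e-08) and Itm2b 2.64-fold higher (1.08 to 1.72, adjusted p = 6.75e-08). Both transporters were lower in GF mice. Abca1 was at 118, 135 and 127 CPM in GF, 138, 196 and 200.01 CPM in SPF and 220.4, 229.5 and 221 CPM in CGF mice, 1.38-fold lower in GF than in SPF mice (adjusted p = 0.0174). This call was lost without GF mouse 5 (log2 fold change -0.39, adjusted p = 0.069), SPF mouse 31 (-0.42, adjusted p = 0.0654) or SPF mouse 32 (-0.33, adjusted p = 0.146) and with thinned libraries (-0.34, adjusted p = 0.108). Abca7 was 2.64-fold lower (adjusted p = 0.00419), from only 13, 11 and 18 UMIs in GF and 11, 18 and 13 UMIs in SPF mice. The summed level of the 8 astrocyte markers in these nuclei was 12466 to 13241 CPM for GF mice, above the 11289 to 12013 CPM of SPF mice and the 10759 to 12012 CPM of the CGF group, and its part in the calls was not tested.

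All 6 genes tested were called in PFC astrocytes between GF and SPF mice, where 48.2% of all genes were called, 24.3% higher and 23.9% lower. The 4 that rose had no overlap between GF and SPF mice, as did 27.1% of all genes. Against CGF mice the same 6 were called in the same direction, where 49.8% of all genes were, with Apoe 4.32-fold higher (adjusted p = 4.9e-10) and Abca1 1.73-fold lower (adjusted p = 0.000113) in GF mice. Between CGF and SPF mice, edgeR and DESeq2 called 0 of 6 where edgeR called 0.175% of all genes, with 2 genes (Abca1 and Apoe) and 1 gene (Apoe) at an unadjusted p under 0.05. The log2 difference of Apoe between CGF and SPF mice was 0.54 (interval 0.18 to 0.89, adjusted p = 0.282). The excitatory neuron markers in PFC astrocytes were at 591 to 654 CPM in GF, 1084 to 1353 CPM in SPF and 951 to 1108 CPM in CGF mice, with 6 or 7 of 7 detected, and their part in these calls was not tested.

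**Figure D4:**
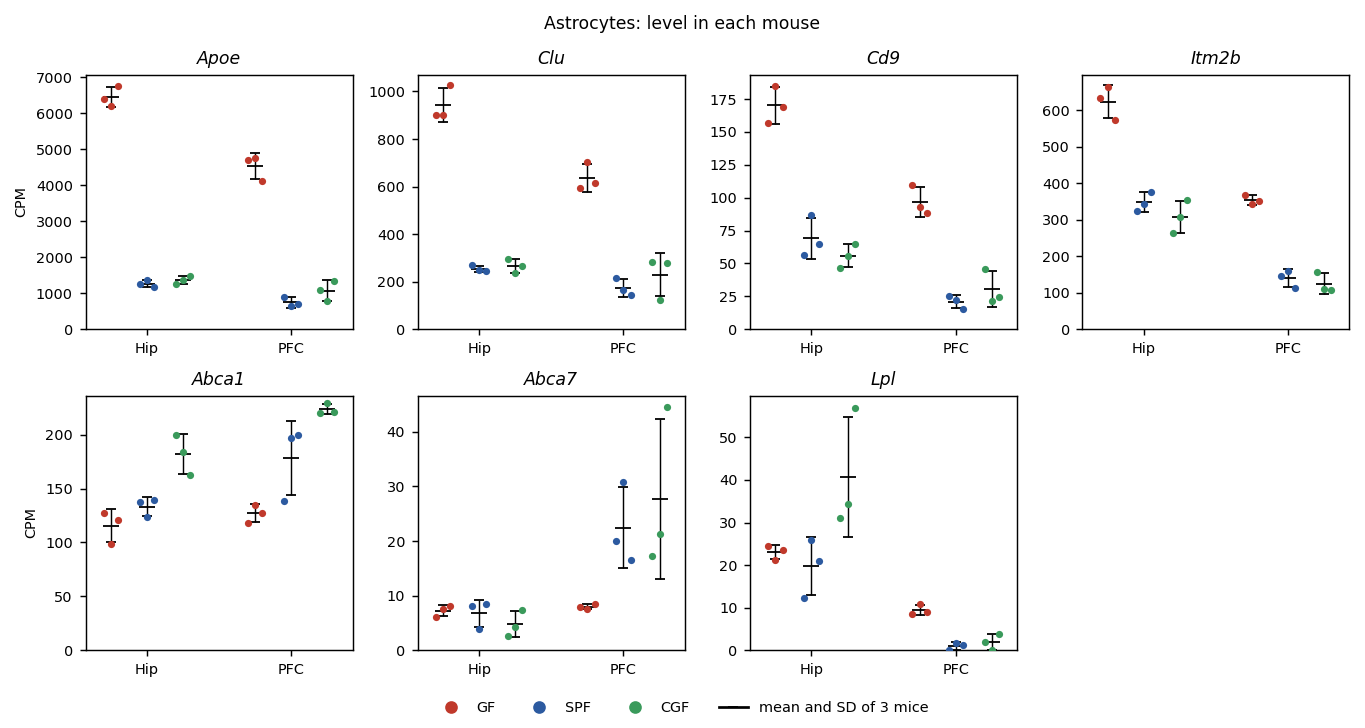
Level in astrocytes (CPM, linear axis from 0) for each mouse, by region and group, with mean and SD of 3 mice. Apoe of GF mice lies at 4132 to 6773 CPM over both regions and that of the other mice at 637 to 1471 CPM, and within PFC, Abca1 of GF mice (118 to 135 CPM) lies below that of the SPF and CGF mice (138 to 229.5 CPM).

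Among the genes that passed, Lpl and Itm2b had the largest rise in Hip excitatory neurons and interneurons, and Cd9 and Lpl in those of PFC. In Hip excitatory neurons, Lpl was at 35.3, 37.8 and 38.6 CPM in GF, 9.8, 22.2 and 11.3 CPM in SPF and 34.1, 26.5 and 37.3 CPM in CGF mice. GF mice lay above SPF mice by 2.30-fold (interval 0.61 to 1.79, adjusted p = 0.0045), and CGF mouse 19 lay among the GF mice, with the other CGF mice below them and above the SPF mice. Itm2b was at 299, 343 and 345 CPM in GF and 111, 133 and 155 CPM in SPF mice, 2.21-fold higher (0.84 to 1.44, adjusted p = 0.000169). Tyrobp (1.68-fold, adjusted p = 0.0353) and Abca7 (1.30-fold, adjusted p = 0.0489) also passed, the former at 0.63 to 1.76 CPM in GF and SPF mice, and Abca1 was 1.53-fold lower in GF mice (adjusted p = 0.0243). The Abca1 call was lost without GF mouse 6 (log2 fold change -0.48, adjusted p = 0.0864), SPF mouse 31 (-0.49, adjusted p = 0.0891) or SPF mouse 32 (-0.58, adjusted p = 0.0584), with the length and GC trend removed (-0.35, adjusted p = 0.185) and with scaling by library totals (-0.46, adjusted p = 0.0778). Tyrobp lost its call without GF mouse 6 or 7 or SPF mouse 30 or 31 (adjusted p = 0.0915 to 0.116), and Abca7 lost it without any of the 9 mice but SPF mouse 30 (0.0565 to 0.16). Both lost it with the length and GC trend removed (0.595 and 0.327), with upper-quartile normalization (0.0535 and 0.119) and by DESeq2 (0.0605 and 0.0648), and Abca7 also under 4 other settings (0.053 to 0.0822). Apoe and Cd9 were called by DESeq2 (0.0449 and 0.0457) and with library totals (0.0389 and 0.0464). In all, 5 of 10 genes were called, where 47.2% of all genes were, 25.4% higher and 21.7% lower. Without single mice the count ran from 2 to 6, with Apoe and Cd9 called without GF mouse 5 (0.041 and 0.0496) and Apoe without SPF mouse 32 (0.0269). In Hip interneurons, Itm2b (2.10-fold, adjusted p = 0.000491), Lpl (1.81-fold, 0.00877) and Clu (1.501-fold, 0.013) were higher and Abca1 was 1.87-fold lower (0.00647), 4 of 7 tested genes where 36% of all genes were called, 19.7% higher and 16.3% lower. Clu was lost there without GF mouse 7 (0.0582), SPF mouse 30 (0.0547) or SPF mouse 31 (0.0504). Without SPF mouse 32 or CGF mouse 19, Cd9 (0.0241 and 0.0338) and Apoe (0.0436 and 0.046) were called there, as was Apoe without GF mouse 5 (0.0316). Removal of the length and GC trend ended the calls of Clu (0.182) and Abca1 (0.0571) in Hip interneurons. Cd9 there, at an adjusted p of 0.0541, was called under 6 other settings (0.0171 to 0.0451), Apoe under 3 (0.0171 to 0.0456) and Abca7 with scaling by library totals (0.0449).

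In PFC excitatory neurons, 9 of 10 genes were called, 5 higher and 4 lower in GF mice, where 63.2% of all genes were called, 32.1% higher and 31.1% lower. Lpl was at 11.7, 12.2 and 10.0 CPM in GF, 2.17, 4.82 and 2.28 CPM in SPF and 4.82, 6.23 and 7.49 CPM in CGF mice, 4.01-fold higher in GF than in SPF mice (interval 1.43 to 2.58, adjusted p = 3.8e-05). Cd9 was 5.95-fold (adjusted p = 2.83e-05), Apoe 1.48-fold (0.00413), Clu 1.36-fold (0.0321) and Itm2b 1.30-fold (0.0132) higher. Abca1 fell most, at 4.16, 3.66 and 3.73 CPM in GF against 13, 30.2 and 12.7 CPM in SPF mice, 4.36-fold lower (adjusted p = 4.83e-05). Trem2, at 1.66, 2.00 and 2.36 against 5.46, 5.66 and 4.66 CPM, was 2.35-fold lower (adjusted p = 0.000762), Fcer1g 2.46-fold lower (0.00058) and Abca7 1.86-fold lower (0.00362) in GF mice. GF excitatory neurons came mostly from clusters 1, 6, 12 and 23, and those of SPF and CGF mice from clusters 0, 2, 3 and 5. Clu lost its call without GF mouse 6 (log2 fold change 0.45, adjusted p = 0.0585) or GF mouse 7 (0.38, adjusted p = 0.102), and Itm2b lost it without SPF mouse 30 (0.29, adjusted p = 0.0679). Clu also lost it without SPF mouse 31 (0.45, adjusted p = 0.0676) or SPF mouse 32 (0.33, adjusted p = 0.128). With library totals Clu (0.206) and Itm2b (0.0634) did not pass, nor did Itm2b with the length and GC trend removed (0.783). In PFC interneurons, 7 of 8 genes were called, where 51.8% of all genes were (26.6% higher, 25.1% lower), with Cd9 5.597-fold, Lpl 3.67-fold, Apoe 2.14-fold, Clu 1.86-fold and Itm2b 1.54-fold higher and Abca1 2.37-fold and Abca7 1.71-fold lower in GF mice. Abca7 lost that call without SPF mouse 31 (adjusted p = 0.0584), and with the length and GC trend removed Abca7 (0.0952) and Itm2b (0.0921) did not pass. The share of free RNA in these low neuronal levels was not tested.

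Apoe, Cd9 and Itm2b also rose in cells of the oligodendrocyte lineage, which form and renew myelin. In Hip oligodendrocytes, Cd9 (1.95-fold, adjusted p = 0.000409), Apoe (1.74-fold, 0.000741) and Itm2b (1.62-fold, 0.000668) were higher in GF mice, 3 of 7 tested genes where 35.5% of all genes were called, 19.9% higher and 15.7% lower. With the length and GC trend removed, Apoe lost this call (log2 fold change 0.12, adjusted p = 0.538), and without SPF mouse 31 Lpl gained one (0.91, adjusted p = 0.0227). In PFC oligodendrocytes, 6 of 6 were called where 50.7% of all genes were (25.6% higher, 25.1% lower), with Apoe at 644, 554 and 606 CPM in GF against 130.1, 105 and 133 CPM in SPF mice (5.08-fold, adjusted p = 1.56e-10). Abca1 (1.68-fold) and Abca7 (2.83-fold) were lower there, the former not without SPF mouse 31 (adjusted p = 0.0725). In OPC, Apoe was 2.54-fold higher in GF mice of Hip (adjusted p = 2.75e-06) and 5.37-fold higher in PFC (5.26e-15), and Cd9 was 2.95-fold (3.65e-07) and 2.96-fold higher (1.24e-07). OPC gave 4 of 7 called genes in Hip, where 20.9% of all genes were called (11.8% higher, 9.06% lower), and 6 of 6 in PFC, where 37.1% were (18% higher, 19.1% lower). Abca1 was lower in GF OPC of both regions, at 118, 85.1 and 108 against 150.0, 139.6 and 136 CPM in SPF mice of Hip (adjusted p = 0.0378) and 105, 121 and 101 against 152, 222 and 240.4 CPM in PFC (adjusted p = 0.000483). The Hip call was lost without GF mouse 6 or 7 or SPF mouse 30 or 31 (adjusted p = 0.0678 to 0.163) and under 6 other settings (0.0594 to 0.312). Abca7 of PFC OPC (2.59-fold lower, adjusted p = 0.0398) lost its call without GF mouse 6 or 7 or SPF mouse 30 or 31 (0.0796 to 0.289) and under 4 other settings (0.052 to 0.15).

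**Figure D5:**
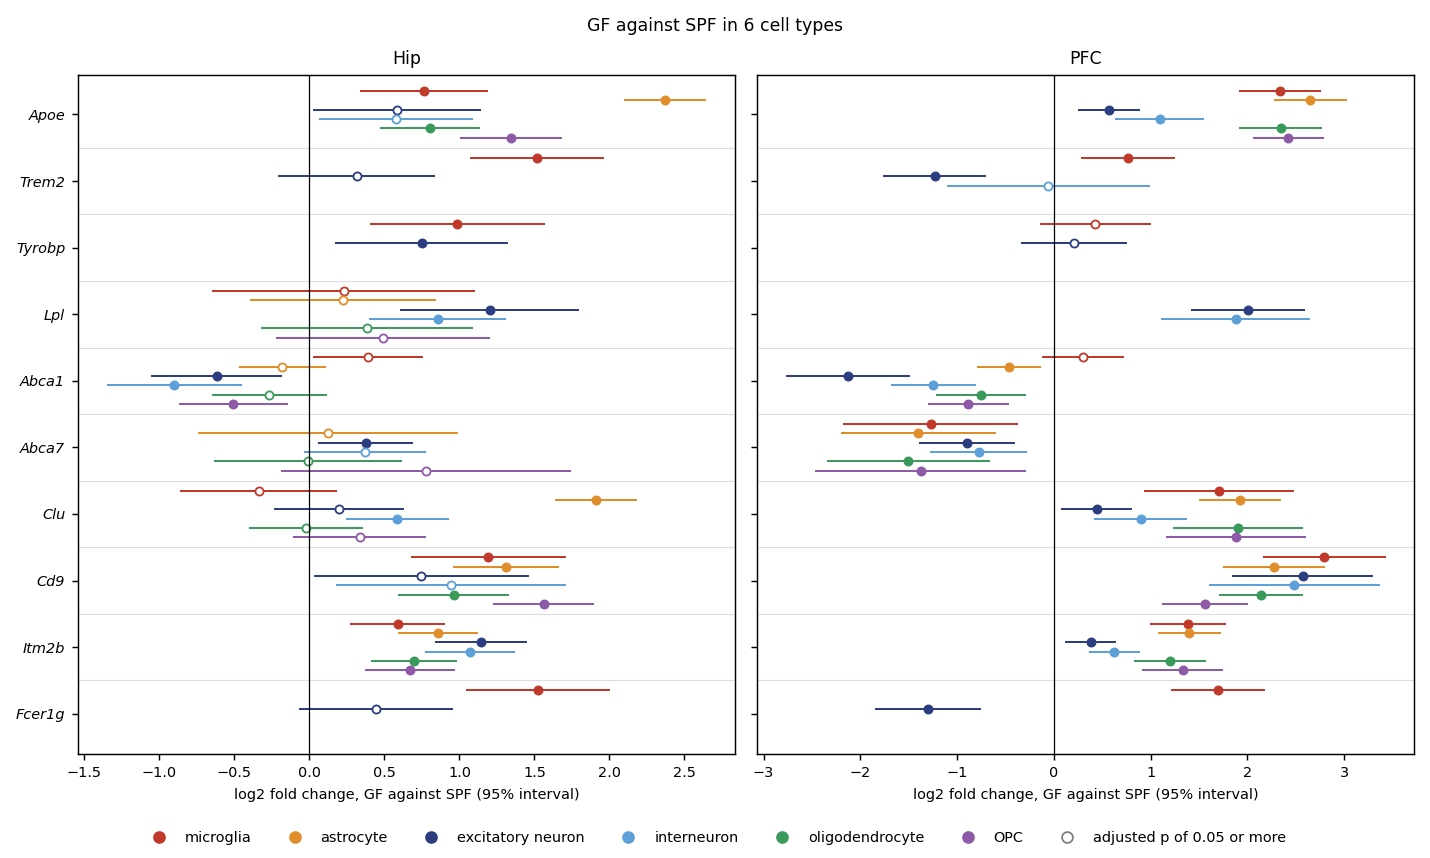
Log2 fold change of GF against SPF mice with its 95% interval for the 10 genes in 6 cell types (colours) of Hip (left) and PFC (right), with filled points for an adjusted p under 0.05. Apoe, Cd9 and Itm2b lie to the right of 0 in glia of both regions, while Abca1 lies to the left of 0 in PFC neurons.

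The step between GF and SPF mice differed by region for several genes. The difference of the log2 fold changes, Hip minus PFC, was tested across all 18 libraries. In microglia it passed for 5 of 10 genes, where 16.7% of all genes passed, and for 4 of the 8 that were tested in each region alone. Apoe (-1.52, interval -2.14 to -0.90, adjusted p = 0.000779), Cd9 (-1.55, adjusted p = 0.0188), Clu (-1.997, adjusted p = 0.00554) and Itm2b (-0.74, adjusted p = 0.0262) had the lower log2 fold change in Hip, where Clu had not passed (-0.34). The fifth gene, Abca7 (2.13, adjusted p = 0.032), had only 3 to 10 UMIs per Hip library and entered the combined fit through PFC, where it is higher, so its value is no measure of a difference between regions. Trem2 leaned the other way without passing (0.81, interval 0.16 to 1.47, adjusted p = 0.0804), and with the mouse as a block for the pairing of both regions it passed (0.86, adjusted p = 0.0335). The count of 5 fell to 2 without GF mouse 7, SPF mouse 30 or SPF mouse 31, where Cd9 (adjusted p = 0.0588 to 0.0947), Itm2b (0.0715 to 0.105) and Abca7 (0.102 to 0.191) were lost. Clu was lost without SPF mouse 32 (-1.37, adjusted p = 0.0933), Itm2b without GF mouse 5 (adjusted p = 0.0744) and Abca7 without GF mouse 6 (adjusted p = 0.0503). Apoe kept its call in each of these fits. Itm2b was also lost with thinned libraries (0.065), doublets removed (0.117), the marker gate (0.181), the other clustering (0.252) and the length and GC trend removed (0.183). Under the last 4 of these settings Cd9 was lost too (0.0538 to 0.217). Abca7 was lost with doublets removed, the gate, the trend removed and library totals (0.0515 to 0.493) and did not pass the filter on thinned libraries. Trem2 passed with doublets removed (0.0174), the gate (0.0223) and the other clustering (0.00551), where Abca1 (0.0497) and Tyrobp (0.0365) passed as well. In astrocytes 3 of 8 genes passed, where 25.8% of all genes did: Cd9 (-0.91, adjusted p = 0.0387), Abca7 (1.58, adjusted p = 0.0464) and Lpl (-2.85, adjusted p = 0.0204). Lpl had 0 or 1 UMI in each SPF and 14 to 19 UMIs in each GF library of PFC astrocytes, could not be tested there alone and entered the combined fit through Hip, so its value is no measure of a difference either. That leaves 2 of the 6 genes tested in each region. The count fell to 0 without SPF mouse 31 and to 1 without any of GF mice 5, 6 and 7 or SPF mouse 32. Cd9 was lost with thinned libraries, doublets removed, the other clustering and the trend removed (0.0669 to 0.152), Abca7 under 8 other settings (0.0522 to 0.312) and Lpl with the gate (0.0993), while Itm2b (0.0645 here) passed under 4 others (0.0172 to 0.0381) and, with the trend removed, Apoe (-0.83, adjusted p = 0.00946) and Abca1 (0.59, adjusted p = 0.0378) passed. For Apoe in astrocytes the difference was -0.22 (interval -0.66 to 0.21, adjusted p = 0.473). Region and depth cannot be told apart here, since only the PFC libraries of SPF and CGF mice were shallow.

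Lists of related genes in microglia were counted for the same comparison of GF with SPF mice. They are described by their counts and carry no test of their own, and each count stands against 27.5% of all genes called in Hip (15.7% higher, 11.8% lower) and 49.9% in PFC (24.7% higher, 25.2% lower). Microglial markers were also higher and neuronal markers lower in these nuclei of GF mice, as given above. The list genes were not set against the markers, and the part of these differences in the counts was not tested. Of the fatty acid binding, lipid droplet and lipase genes, 9 of 16 were tested in Hip and 2 rose, Fabp5 (3.50-fold, adjusted p = 2.56e-06), a fatty acid carrier, and Fabp3 (2.48-fold, 0.00241), with a list median of 0.56 on the log2 scale against 0.01 over all genes tested. In PFC 6 of 8 were called, 5 higher and 1 lower, among them Fabp3 (4.56-fold, 3.26e-05) and the lysosomal lipase Lipa (3.31-fold, 0.00447), while Lmf1, a maturation factor of lipases, was 3.12-fold lower (0.000127). Of the lipoprotein receptor and lipid efflux genes, 3 of 14 were called in Hip, Npc2, a lysosomal cholesterol carrier, higher (1.97-fold, 0.00334) and the receptors Sorl1 (2.46-fold, 0.000337) and Lrp8 (2.66-fold, 0.0109) lower. In PFC 8 of 11 were called, 4 in each direction, with Apod (6.02-fold, 0.000961) and Mylip (2.56-fold, 1.49e-05) higher and the sterol sensor Nr1h2 (3.69-fold, 0.000662) lower. Apod was at 0 to 13.85 CPM in SPF mice, and CGF mice (12.2 to 70.84 CPM) spanned the GF range (44.54 to 54.14 CPM). Lipa of PFC was at 4.616 to 12.25 CPM in SPF mice. Fabp3 of PFC was at 9.802 to 30.52 CPM in SPF and 8.136 to 26.57 CPM in CGF mice. These SPF levels rest on few UMIs, which limits each of these folds. Apod, Lipa and Fabp3 of PFC passed the filter on low counts only with the GF mice, where they are high. Their calls are therefore no independent evidence of a rise. Lrp8 lost its call without SPF mouse 32 (adjusted p = 0.0523), with thinned libraries (0.0518) and by DESeq2 (0.0611), Fabp3 of Hip with the length and GC trend removed (0.0929), and Lmf1 of PFC with the marker gate (0.0688). The medians of this list were -0.26 in Hip and 0.11 in PFC, where all genes tested had 0.05.

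Downstream of the receptors, 2 of 20 genes of Trem2 and Tyrobp signalling rose in Hip, where 15.7% of all genes did, Pik3cb (1.53-fold, adjusted p = 0.0308) and Adam17 (1.46-fold, 0.039), which cuts Trem2 from the cell surface. In PFC 13 of 20 were called, 11 higher and 2 lower, where 49.9% of all genes were called. Spi1, which encodes PU.1 (3.02-fold, 5.47e-06), the phosphatase Inpp5d (2.90-fold, 8.21e-07) and the kinase Lyn (2.84-fold, 1.37e-07) were higher there. The summed microglial markers were higher in these nuclei of GF mice as well, and this list was not set against them. Pik3cb was lost in Hip without GF mouse 6 or 7 or SPF mouse 31 or 32 (adjusted p = 0.0653 to 0.257), and Adam17 without those or GF mouse 5 or CGF mouse 17 (0.0544 to 0.156). Both also lost it by DESeq2, with the marker gate and with no filter on low counts (0.0662 to 0.124), and Adam17 with the other clustering (0.0825). In PFC, Spi1 did not pass with the marker gate (0.0532). The list's median was 0.16 in Hip and 0.54 in PFC. Of a list of Fc receptors and related receptors, not all of which pair with Fcer1g, 3 of 4 tested rose in Hip and 2 of 3 in PFC. Fcgr3 was 2.26-fold (0.000844) and 2.64-fold (0.000251) and Clec4a3 2.65-fold (0.00527) and 3.19-fold (0.00237) higher in GF mice. Clec4a3 of Hip did not pass without GF mouse 5 (0.0505) or 7 (0.0582), nor Fcgr3 of PFC with the marker gate (0.155) or the other clustering (0.0545). Clec4a3 of PFC was at 9.233 to 20.35 CPM in SPF mice, so its fold rests on few UMIs. It passed the filter on low counts there only with the GF mice, where it is high.

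Among the disease-associated microglia genes, a set first drawn from microglia near amyloid plaques, 6 of the 15 in the files were tested in each region. The all-gene shares called were 27.5% in Hip and 49.9% in PFC for these and for the lists that follow. In Hip, Ctsz (2.97-fold, adjusted p = 3.37e-05) and Cd68 (2.93-fold, 0.00197), both lysosomal, rose and Ank was 1.52-fold lower (0.0445). Cd68 was at 13.05 to 19.66 CPM in SPF and 4.629 to 16.55 CPM in CGF mice, from few UMIs. It passed the filter on low counts only with the GF mice, where it is high, so its call is no independent evidence of a rise. In PFC, Ctsb (2.97-fold, 3.34e-06) and B2m (1.93-fold, 0.0139) were among 3 that rose, and Ank was 1.72-fold lower (0.00342). The study selected Ctsz and Ctsb on these samples as reversed by colonization, so their direction here is not independent evidence. Of the tetraspanins, 4 of 8 were called in Hip, 3 higher, with Cd53 (1.81-fold, 0.008), Cd81 (1.66-fold, 0.000971) and Cd37 (1.47-fold, 0.0121) as examples. In PFC 6 of 7 were called, with Cd37 3.00-fold (5.45e-06) and Cd53 2.54-fold (0.00215) higher and Tspan5 3.22-fold lower (6.49e-08). Of the relatives of Itm2b and the amyloid processing genes, 2 of 10 were called in Hip, Psenen, a subunit of gamma-secretase, 2.60-fold higher (0.000836) and Itm2c 1.34-fold lower (0.0499). In PFC 3 of 10 were called, all higher, Itm2c by 7.64-fold (5.02e-09), Bace1, which makes the first cut of the amyloid precursor protein, by 3.08-fold (0.00133) and Psenen by 1.85-fold (0.0133). Bace1 was at 10.17 to 19.6 CPM in SPF mice, so its fold rests on few UMIs. Bace1 of PFC and Psenen of Hip passed the filter on low counts only with the GF mice, where they are high. Several of these calls were lost when a single mouse was left out. Ank of Hip was lost without GF mouse 5 or 7 or SPF mouse 31 (adjusted p = 0.127 to 0.143), and Ank (0.0702) and B2m (0.131) of PFC without SPF mouse 32. Cd37 of Hip was lost without GF mouse 5 or SPF mouse 30 (0.0551 and 0.0846) and Cd53 of Hip without GF mouse 6 or SPF mouse 31 (0.062 and 0.0553). With 1 mouse left out, Itm2c of Hip passed only without CGF mouse 17 or 19 (otherwise 0.0503 to 0.112), and Psenen of PFC was lost without SPF mouse 30 (0.0593). Removal of the length and GC trend left no difference for Cd37 in Hip (log2 fold change -0.0424, adjusted p = 0.888) and ended the Hip calls of Cd68 (0.278), Cd81 (0.0627), Psenen (0.391) and Ank (0.254) and the PFC calls of Ank (0.0905), B2m (0.822) and Psenen (0.411). The marker gate ended those of Itm2c in Hip (0.158) and of Tspan5 (0.294) and B2m (0.651) in PFC. The other clustering ended those of Ank (0.83), B2m (0.262), Cd53 (0.0987) and Psenen (0.0973) in PFC. With doublets removed, Ank (0.0548) and B2m (0.132) of PFC did not pass. DESeq2 did not call Ank (0.104) or Itm2c (0.111) of Hip or Psenen of PFC (0.076), thinned libraries ended Itm2c (0.0873) and no filter ended Cd37 (0.0756) of Hip. Over all 7 lists, no gene was called by edgeR between CGF and SPF mice in microglia of either region.

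Over 167 sums of 1 library and cell type, the genes with the pattern most like Apoe were Clu (Pearson r = 0.838), Cst3 (0.837) and Prdx6 (0.795), and those most like Trem2 were Il10ra (0.848), Cd33 (0.848) and Abcc3 (0.84). These correlations of log2(CPM + 1) describe sums that share libraries and depth, and no p is given.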

How the data were processed

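The authors sequenced nuclei with the Chromium Single Cell 3′ V3.1 kit and deposited raw UMI counts, whole numbers per gene and nucleus of each library, with no normalization. Per the file headers the counts come from Cell Ranger 3.1.0. The design text of the series names an earlier kit and an earlier Cell Ranger version, and the versions of the headers and the study were used. The build is mm10 (Ensembl 92 in the study's methods), and the submitters' processing notes name CASAVA 1.8. Groups, regions and mouse numbers were taken from the sample labels. The 10 genes, the gene lists and the tests were chosen with earlier results of these data known.

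Of 139924 barcodes, 138000 had at least 200 genes and no more than 10% of UMIs from mitochondrial genes and were kept. In each region, 2000 variable genes and 10 components were clustered (20 neighbours, resolution 1, leidenalg 0.10.2) without integration, and the 34 Hip and 35 PFC clusters were named from markers. A total of 6760 nuclei (4.9%) stayed unnamed. Likely doublets, the top 0.8% per 1000 nuclei of a library by a score against simulated doublets, were removed only in an alternative, and clusters made mostly of them stayed unnamed. Types with at least 20 nuclei in a library were summed.

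Sums of 6 cell types were tested with edgeR 4.0.16 (R 4.3.3; filterByExpr, TMM, glmQLFit, glmQLFTest), 9 mice of a region per fit, with Benjamini-Hochberg adjustment over all genes and a threshold of 0.05. Differences between regions were an interaction over 18 libraries, 22 comparisons in all. Mice are the replicates. The mouse number pairs Hip and PFC of 1 animal, and deviations of both regions from their group means correlated by 0.0532 to 0.136 in microglia and 0.0174 to 0.178 in astrocytes. Named were the 10 genes, from each list and region up to 3 microglial genes with the largest change past the threshold and no overlap between GF and SPF mice, and the 3 genes with the highest correlation with Apoe and with Trem2. Gene length, GC content and coordinates came from GENCODE release 21 (mouse). Alternatives were DESeq2 1.42.0, no filter, upper-quartile normalization, thinned libraries, doublets removed, a marker gate per nucleus, 20 components with resolution 0.5, removal of the trend on gene length and GC content, only the 6 mice of 2 groups, the mouse as a replicate block and each mouse left out. Chosen after seeing the data were scaling by library totals, removal of microglia with at least 2 UMIs of macrophage markers, and levels per 1000 marker UMIs. The test was checked on counts simulated for microglia and astrocytes from 1 composition for all groups, without the cluster split of PFC. It found 63.5% to 75.5% of the 2-fold changes, and 3.41% to 5.49% of its calls were false. Clec6a and Clec7a were not analysed here.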

Additional observations from a re-analysis of the deposited data

Results flagged for a closer look

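In 8 cases, the step between GF and SPF mice differed between Hip and PFC by edgeR's interaction test. As log2 differences, Hip minus PFC, these were Abca7 (2.13), Apoe (-1.52), Cd9 (-1.55), Clu (-1.997) and Itm2b (-0.74) in microglia, and Abca7 (1.58), Cd9 (-0.91) and Lpl (-2.85) in astrocytes. Abca7 of Hip microglia and Lpl of PFC astrocytes were too low to test in that region alone and entered the combined fit through the other region, where they are higher, so these 2 values are no measure of a difference between regions. Each group held 3 mice per region, and only the PFC libraries of SPF and CGF mice were shallow, so region and depth cannot be told apart.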

How the results depend on the processing

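With nuclei gated one by one by markers, the 7 called genes of PFC microglia fell to 4 against SPF and to 4 against CGF mice, since Clu and Abca7 no longer passed the filter and Trem2 did not pass against SPF mice and was near 0 against CGF mice (-0.0613). Removal of the length and GC trend left log2 fold changes near 0 for Apoe (-0.0045) and Cd37 (-0.0424) in Hip microglia against SPF mice and lowered the counts to 2 of 4 in Hip interneurons, 2 of 5 in Hip excitatory neurons and 2 of 5 in the microglial difference between regions. The count for that difference was 3 with thinned libraries. It was also 3 without doublets and 3 with the marker gate, where it included Trem2, which had not passed before. The count of 3 for the astrocytic difference became 1 with thinned libraries, 1 without doublets and 1 with 20 components. Upper-quartile normalization left 3 genes in Hip excitatory neurons, library totals raised Hip interneurons to 7, and no filter gave 2 genes in Hip astrocytes of CGF against SPF mice. The cause of these shifts was not tested.

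With 1 mouse left out, counts ranged from 2 to 6 in Hip excitatory neurons, 0 to 1 in Hip microglia of CGF against SPF mice, 2 to 5 for the microglial and 0 to 4 for the astrocytic difference between regions. With the mouse as a replicate block for the pairing, the microglial difference gave 6 genes (Trem2 added) and the astrocytic one 3, and no other call changed. The median log2 fold change of GF against SPF mice over all genes also depended on the scaling. With library totals it was 0.22 in PFC microglia, against 0.0549 with TMM (59.7% and 49.5% of calls higher). It was 0.20 against 0.0378 in Hip excitatory neurons (72.6%, 53.9%) and 0.16 against 0.012 in Hip interneurons (75%, 54.8%). In the microglial difference between regions the median was -0.28 against -0.0321 (26.6%, 50.1%). Over all genes, calls between GF and SPF mice ranged over the alternatives from 1436 to 2285 in Hip microglia (2187 as reported), 1125 to 4607 in PFC microglia (3915), 2495 to 4440 in Hip astrocytes (4275) and 501 to 1910 for the microglial difference (1524). Microglial levels rest on 154 to 383 nuclei per library, which limits Abca7 and Lpl most.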
